A study of Drosophila melanogaster with 8 samples.

Results

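The 90 cytosolic ribosomal protein genes of Drosophila melanogaster were examined across 4 groups of S2R+ cells, a cultured line derived from embryonic cells with features of hemocytes (insect blood cells). They were the rows of the deposited count tables whose symbol begins RpL, RpS or RpLP and then a digit, together with sta (stubarista, the small-subunit protein RpSA), 90 of 14161 genes. They comprised 49 genes of the large subunit, 37 of the small subunit and 4 of the stalk family. Every group carried Actin:dCas9-VPR, a nuclease-dead Cas9 fused to the VPR transcription activation domain and driven by an Actin promoter, introduced by transfection. The groups differed in the co-transfected guide RNAs: a pool of 5 guides against the mesodermal transcription factor Twist, a pool of 5 against the transcriptional repressor Snail, both pools together, or control guides, with 2 libraries each. In the sample labels the control guides target a luciferase reporter promoter, whereas the treatment protocol calls them non-targeting. The share of cells that took up the plasmids is not given, and mRNA was measured in bulk.

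Each cytosolic ribosome holds 1 copy of almost every ribosomal protein, so these genes are expressed together at very high levels in growing cells, and in flies the loss of 1 copy of many of them gives the Minute phenotype of slow growth and thin bristles. The small subunit decodes mRNA, the large subunit forms peptide bonds, and the stalk proteins on the large subunit recruit the translation factors that hydrolyse GTP. Several fly ribosomal proteins are encoded by a pair of genes, of which 1 is used broadly and the other, in several cases, mainly in the germline. The comparison addressed how far this housekeeping set stayed level when 2 developmental transcription factors were switched on.

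Total counts ranged from 10752993 to 13351166 per library. The targeted genes followed the labels: twi had 345 and 384 counts with Twist guides, 164 and 137 with both pools, and 0 in the Snail and control libraries, and sna had 1079 and 1218 counts with Snail guides, 1485 and 1320 with both pools, and 0 to 2 counts elsewhere. Of 9 hemocyte markers, Pxn, srp and crq exceeded 10 CPM (read counts relative to a library's normalised total) in the median library while Hml, nimC1, eater and He were under 1 CPM, and the 3 fat body markers were all under 1 CPM. The control libraries stood apart from each other: without either of them the common biological coefficient of variation was 0.0496, against 0.0792 with all 8 libraries, and 0.0838 to 0.0883 without any 1 of the other libraries. Results of the whole set against control are therefore also given with each control library alone, as are those of some single genes.

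In the Ensembl annotation of the BDGP6.54 assembly, 88 of the 90 symbols were current and 2 were older symbols (RpL37a, now RpL37-1, and RpL37b, now RpL37-2). The genes were spread over the genome, with 17 on chromosome arm 2L, 21 on 2R, 13 on 3L, 23 on 3R, 15 on X and only RpS3A on chromosome 4. Their transcripts were short: the median length was 708 bp (288 to 1512 bp) for the 83 genes that passed the filter on low counts, against 1933 bp for all tested genes with a length. Small nucleolar RNA genes lay within 29 of the 90, 76 such genes in all. A protein-coding gene overlapped on the opposite strand in 22 and on the same strand in 3. RpL12 and RpL39 share 8 bp at their ends on opposite strands, and since the strand setting of the counting is not known, reads from these 8 bp cannot be assigned.

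Ribosomal protein transcripts were among the most abundant in the cells. Per kilobase of transcript, the median over the 83 tested genes was 2338 CPM, with quartiles of 1983 and 3459 CPM per kb, and 73 of them were among the 100 highest of 7863 genes with a length. The large and small subunit genes had similar medians of 2316 and 2384 CPM per kb. Not divided by length, 71 of them exceeded 1000 CPM, as did 71 other genes. A further 7 genes stayed under 1 CPM and did not pass the filter: RpL10Aa, RpL22-like, RpL37b, RpL7-like, RpS10a, RpS28-like and RpS28a. The 63 tested genes outside paralog pairs were all at or above 759 CPM, so every member below that level was in a paralog pair by its symbol. These included RpL22, at 332 CPM, which was the more abundant gene of its pair.

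The 5 highest genes per kilobase were RpL41, which encodes an exceptionally short peptide, RpL23, RpL39 (a small protein lining the peptide exit tunnel), RpS3 (at the mRNA entry site) and RpS23 (at the decoding centre). RpL41, at 2R:24903416-24903935 on the minus strand, averaged 8246 CPM per kb over the 8 libraries and had rank 2 among genes with a length. It had 2416 and 2282 CPM in the Twist libraries, 2891 and 2829 CPM in the Snail libraries, 2608 and 2921 CPM in the both-pool libraries, and 2864 and 2299 CPM in control replicates 1 and 2. RpS3, at 3R:23358812-23360207 on the plus strand, had 5484 and 5062 CPM in the Twist libraries, 5822 and 6219 CPM in the Snail libraries, 6006 and 6142 CPM in the both-pool libraries, and 5912 and 4753 CPM in control replicates 1 and 2. In both genes the highest library was a Snail or both-pool library and the lowest a Twist library or control replicate 2. Control replicate 1 exceeded 1 Snail library in each, at 2864 against 2829 CPM in RpL41 and 5912 against 5822 CPM in RpS3. RpL23, RpL39 and RpS23 averaged 6772, 6409 and 5480.5 CPM per kb.

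**Figure D1:**
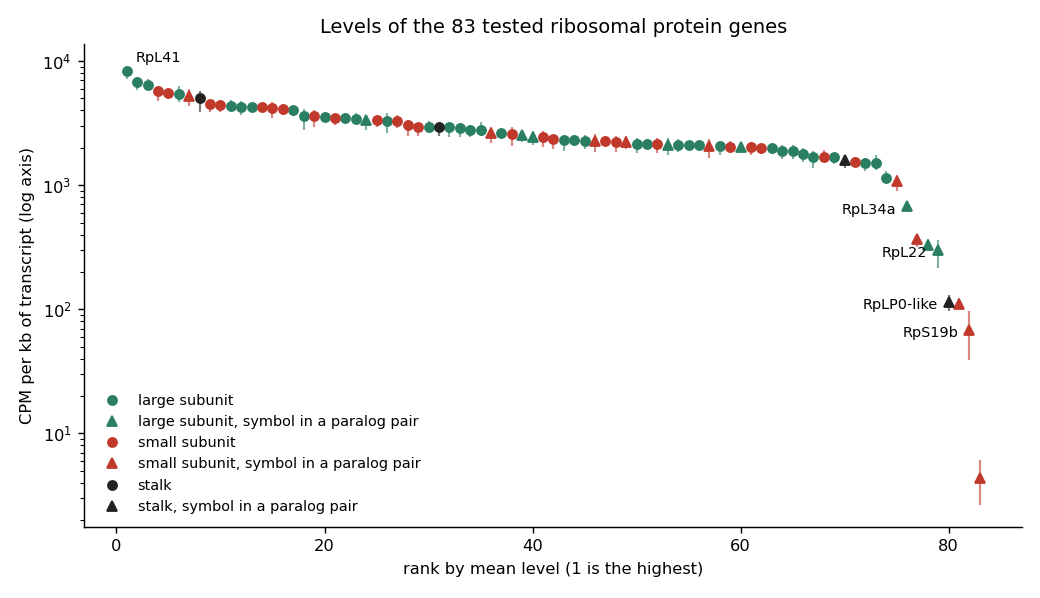
Mean level of the 83 tested ribosomal protein genes over 8 libraries in CPM per kb of transcript (log axis), ranked from the highest; bars span the lowest to the highest library, colours give the subunit and triangles mark symbols in a paralog pair. The curve declines slowly from RpL41 (8246 CPM per kb) to about rank 74 and then drops through RpL34a, RpL22 and RpLP0-like to RpS19b (67.8 CPM per kb), all of them in pairs, and the lowest point is not described here.

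The stalk genes RpLP1 and RpLP2, which encode the acidic proteins that dock translation GTPases, averaged 2936 and 5021 CPM per kb, and RpLP0, which anchors them to the ribosome, averaged 1581 CPM per kb. RpLP2, a gene of 1 exon at 2R:16586129-16586732, had 2918 and 2649 CPM in the Twist libraries, 3078 and 3439.8 CPM in the Snail libraries, 3287 and 3234 CPM in the both-pool libraries, and 3287 and 2366 CPM in control replicates 1 and 2. Control replicate 2 was the lowest of the 8 libraries. sta, at X:1481797-1483413 on the minus strand, had 2696 and 2504 CPM in the Twist libraries, 2839 and 3172 CPM in the Snail libraries, 3078 and 2923 CPM in the both-pool libraries, and 2817 and 2261 CPM in control replicates 1 and 2, again with control replicate 2 lowest.

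The deposited symbols gave 15 pairings of a less and a more abundant paralog among 27 genes (names ending in a and b, or a -like gene with its parent), and in each of them 1 gene carried most of the counts. The minor paralog had under 1% of the pair's counts in 9 of the 15 pairings, although that of RpS28-like with RpS28a held only 3 counts in all, and over 10% in 3. How the counting treated reads that match both genes of a pair is not given. In 8 pairings, among them those of RpL22, RpL37, RpS10, RpS15A, RpS19 and RpS28, the abundant gene was on the X chromosome and the minor gene on an autosome. No pairing had the reverse arrangement, 1 had both genes on X and 6 had both on autosomes. The minor gene had 1 exon in 5 pairings (RpL10Aa, RpL37b, RpS10a, RpS15Ab and RpS28a).

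RpL10Aa had 0 of the 163782 counts of its pair over the 8 libraries, which allows a share of up to 0.00183%, and RpS28-like had 0 of 369875 counts beside RpS28b, which allows up to 0.000811%. RpL7-like had 1 count, RpS28a 3, RpS10a 31, RpL22-like 39 and RpL37b 48. RpS10a had 11 and 5 counts with Twist guides, 1 and 4 with the Snail pool, 4 and 4 with both pools, and 1 and 1 in controls, too few to pass the filter with all 8 libraries. Without either control library, Snail replicate 1 or both-pool replicate 2 it passed, but only through Twist replicate 1, whose 11 counts alone exceeded the count minimum of 10. The filter thus admitted RpS10a by the group in which it was high. Twist guides against control gave log2 fold changes of 2.58 against replicate 1 and 2.56 against replicate 2. Each rests on 1 control count and is not a test of a difference. RpL22-like, which is known from the fly testis, made up 0.124% of the counts of its pair (exact 95% interval 0.0884 to 0.17%). Intervals and limits cover counting error only.

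In RpL34 and RpS14 both genes were well expressed. RpL34a, at 3R:26058420-26059267, held 19.7 and 19.4% of the RpL34 counts with Twist guides, 19.9 and 18.7% with the Snail pool, 19.7 and 19.2% with both pools, and 19.6 and 20.7% in controls. The groups overlapped, and the share ranged from 18.7 to 20.7%. RpS14b held 21.0 and 22.9% of the RpS14 counts with Twist guides, 20.6 and 20.9% with the Snail pool, 19.4 and 18.8% with both pools, and 21.3 and 20.4% in controls, so both libraries with both pools lay below the other 6. RpS14a and RpS14b are tandem copies 220 bp apart on X (X:7933742-7934677 and X:7934898-7935792), encode near-identical proteins, and may share reads, so their split is uncertain. RpS14a itself had a fold change of 0.30 ± 0.098 on the log2 scale (SE; adjusted p = 0.14, edgeR) with both pools against Twist guides.

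RpL24-like and RpLP0-like carry ribosomal protein names but belong to families that in yeast act in assembling the large subunit. RpL24-like held between 11.8 and 13.9% of the counts of its pair and RpLP0-like between 4.49 and 6.08%. RpL24-like had 247 and 243 CPM in the Twist libraries, 277 and 285 CPM in the Snail libraries, 244 and 262 CPM in the both-pool libraries, and 252 and 232 CPM in control replicates 1 and 2. The 2 Snail libraries were the highest, and the gene had a fold change of 0.21 ± 0.076 on the log2 scale (SE; adjusted p = 0.245, edgeR) against control, and an adjusted p of 0.455 against control replicate 1 alone and 0.0163 against replicate 2 alone. RpS15Ab held between 4.21 and 5.35% of the RpS15A counts.

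RpS19b, the minor copy of RpS19, is described as germline-enriched in flies and was among the lowest tested genes. RpS19b, at 3R:23932729-23933530 on the minus strand, had 36.8 and 25.9 CPM in the Twist libraries, 48.5 and 53.2 CPM in the Snail libraries, 55.8 and 64.1 CPM in the both-pool libraries, and 44.2 and 30.6 CPM in control replicates 1 and 2. The both-pool libraries were the highest and the Twist libraries among the lowest, with control replicate 2 between the Twist libraries. Its abundant partner on X, RpS19a, averaged 2269 CPM per kb, against 67.8 CPM per kb for RpS19b.

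As a share of its pair, RpS19b held 2.36 and 1.86% of the counts with Twist guides, 2.99 and 2.97% with the Snail pool, 3.22 and 3.9% with both pools, and 2.67 and 2.41% in controls, without overlap between the both-pool libraries and any other group. Of 4 germline markers, aub had 101 to 119 CPM, while vas had 0.27 to 0.647, nos 0.928 to 3.09 and bam 2.13 to 3.96 CPM over the 8 libraries. Their summed level was 106 to 111 CPM with Twist guides, 117 to 121 with the Snail pool, 112 to 118 with both pools and 119.8 to 124 CPM in controls, most of it from aub. nos had 1.89 to 3.09 CPM in the 6 activated libraries, against 0.928 and 1.1 CPM in controls, and the part of germline transcripts in the RpS19b values was not tested.

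**Figure D2:**
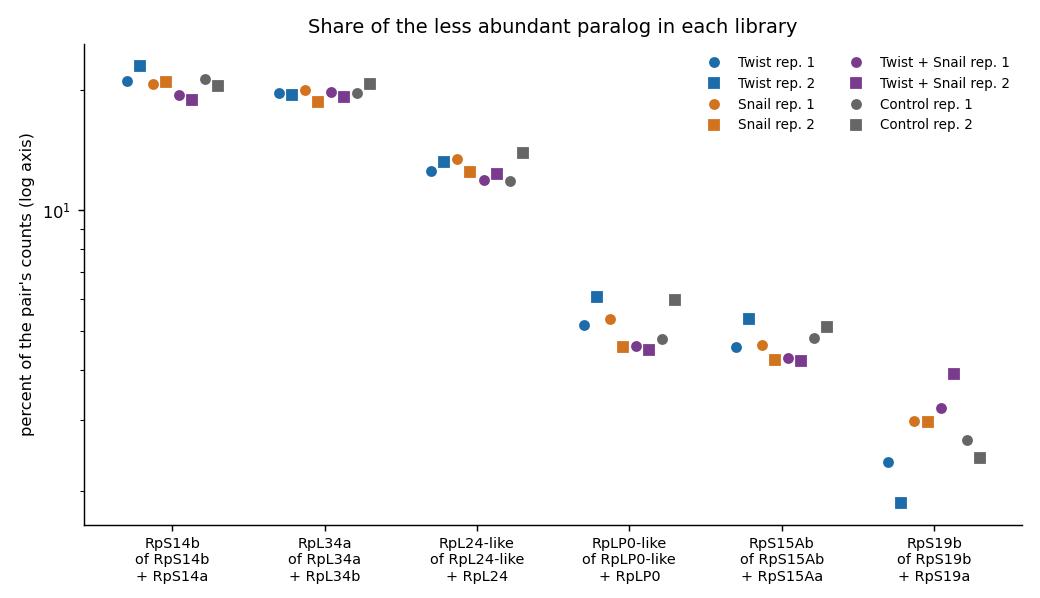
Percent of the pair's counts held by the less abundant paralog (log axis) in each of the 8 libraries, for the 6 pairs in which it is above 1%; colours give the guide group and circles and squares the replicates 1 and 2. RpL34a stays between 18.7 and 20.7%, whereas RpS19b runs between 1.86 and 3.9%, with both both-pool libraries highest.

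Ribosomal protein genes took between 14.6 and 18.1% of all counts, and the widest gap between replicates was within the control pair. The share was 16.2 and 15.5% with Twist guides (mean 15.9 ± 0.441%, SD, n = 2), 17.4 and 18.1% with the Snail pool (17.7 ± 0.486%), 17.3 and 17.7% with both pools (17.5 ± 0.224%), and 17.2 and 14.6% in controls (15.9 ± 1.86%). The SD within the control pair exceeded that within each of the other groups, and the control values bracketed both Twist values. Without the 27 genes of the pairs the mean over all libraries was 14.1%, against 16.7% with them.

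Most of the genes lay on the same side of their mean in a given library. Relative to each gene's own mean over the 8 libraries, the median log2 deviation of the 83 genes was -0.043 and -0.12 with Twist guides, 0.034 and 0.13 with the Snail pool, 0.087 and 0.086 with both pools, and 0.045 and -0.19 in control replicates 1 and 2, with all-gene medians within 0.0061 of 0. Only 7 and 2 of the 83 genes were above their own mean in the Twist libraries, against 59 and 78 with Snail guides, 71 and 76 with both pools, and 72 and 2 in controls. The subunits were close to each other: in control replicate 2 the medians were -0.21 for small and -0.19 for large subunit genes, and in Snail replicate 2 they were 0.12 and 0.13. Control replicate 2 was the lowest library for 62 of the 83 genes and Snail replicate 2 the highest for 39. The 71 tested mitochondrial ribosomal protein genes, which build a separate ribosome, had medians of 0.015 and 0.11 with Twist guides, 0.058 and 0.065 with the Snail pool, -0.085 and -0.14 with both pools, and 0.036 and -0.052 in controls, a different order of libraries. In bulk samples, a change in the mix of cells and a change of RNA per cell cannot be told apart.

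**Figure D3:**
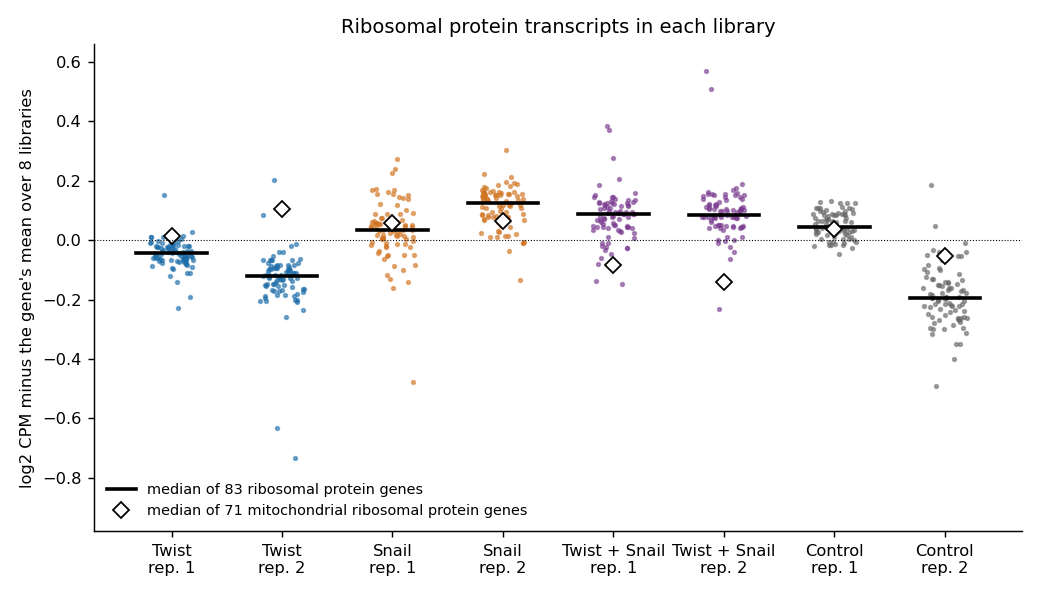
Log2 CPM of each of the 83 ribosomal protein genes minus its mean over 8 libraries (points, coloured by guide group), with the median per library (bar) and the median of 71 mitochondrial ribosomal protein genes (diamond). Control replicate 2 (-0.19) and the Twist libraries (-0.043 and -0.12) lie low, and the Snail, both-pool and control replicate 1 libraries lie above 0.

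The median spread of single genes was near that of all tested genes and, above 1000 CPM, wider than the median of other genes. The SD of log2 CPM over the 8 libraries had a median of 0.123 for the 83 genes, against 0.133 for all tested genes, and 0.121 for the 71 genes above 1000 CPM, against 0.103 for the 71 other genes above that level. Above that level the upper quartile and the largest value were smaller in ribosomal protein genes, at 0.149 and 0.188 against 0.168 and 0.511. RpL36A (SD 0.0465), RpS4 (0.0605) and RpS13 (0.0715), named after their values were seen, varied least. RpS19b (0.45) and RpL22 (0.234) were among the genes of widest spread, which are not all named here.

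Against both control libraries no ribosomal protein gene was called, that is, none reached an adjusted p under 0.05 (edgeR quasi-likelihood test, Benjamini-Hochberg over 8029 genes), with any guide pool. With Twist guides 0 of 83 were called, against a background of 0.934% of all tested genes, with a median log2 fold change of -0.016 and 27 above 0. For Snail guides the count was again 0 (background 0.324%), with a median of 0.15, or 1.11-fold, and 80 above 0. With both pools it was 0 (background 1.57%), with a median of 0.15, also 1.11-fold, and 81 above 0. The 3 comparisons share the control libraries, so their signs are not independent of each other. The medians of all tested genes were within 0.01 of 0. At an unadjusted p under 0.05 there were 0, 7 and 9 ribosomal protein genes in the order Twist, Snail and both pools, against 8.28, 14.0 and 16.5% of all tested genes. The Wald test of DESeq2 called 0, 0 and 1 of them, the 1 being RpS19b with both pools, against 0.897, 1.03 and 2.06% of all tested genes.

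For part of the genes the libraries of the groups did not overlap at all. With Twist guides 0 of 83 genes had both libraries above or both below both controls, against 15.2% of all tested genes above and 16.2% below. With Snail guides 30 genes had both libraries above both controls and 1 below, against 21.5% of all genes above and 21.7% below, and with both pools 40 were above and 2 below, against 22.0% of all genes above and 22.2% below. For 52 genes with Snail guides and 41 with both pools the values overlapped control.

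The result turned on which control library was used. Against control replicate 2 alone, 53 of 84 genes were called higher with Snail guides (background 6.17% called higher; median 0.28, or 1.22-fold) and 53 of 84 with both pools (background 5.66%; median 0.27, or 1.2-fold), while 0 were called with Twist guides (background 4.05% called either way; median 0.11, 13 at an unadjusted p under 0.05). Against control replicate 1 alone, 0 of 84 were called with Snail guides (background 0.805% called either way; median 0.028, 0 at an unadjusted p under 0.05) and 0 with both pools (background 6.68% called either way; median 0.033, 4 at an unadjusted p under 0.05), while RpL36 and RpL41 were called lower with Twist guides (background 1.77%; median -0.13). RpS10a also passed the filter in these fits, which assume that the lone control library varies like the others.

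RpL8, a large-subunit protein beside the peptidyl transferase centre, had the smallest p with Snail guides against control replicate 2 and was picked after its values were seen. It had 3732 and 3368 CPM in the Twist libraries, 4057 and 4496 CPM in the Snail libraries, 4156 and 4069 CPM in the both-pool libraries, and 4138 and 3021 CPM in control replicates 1 and 2. Control replicate 1 lay among the Snail and both-pool libraries and control replicate 2 below all 7 others. With Snail guides the gene had a fold change of 0.50 ± 0.087 on the log2 scale (SE; adjusted p = 0.000288, edgeR) against control replicate 2 alone, and a fold change of 0.047 ± 0.085 on the log2 scale (SE; adjusted p = 0.904, edgeR) against control replicate 1 alone. RpL36, another large-subunit protein, had 875 and 819.6 CPM in the Twist libraries, 991 and 1053 CPM in the Snail libraries, 962 and 1024 CPM in the both-pool libraries, and 1023 and 760.1 CPM in control replicates 1 and 2. With Twist guides it had a fold change of 0.16 ± 0.08 on the log2 scale (SE; adjusted p = 0.34, edgeR) against replicate 2 and a fold change of -0.27 ± 0.078 on the log2 scale (SE; adjusted p = 0.0419, edgeR) against replicate 1, so that the sign changed with the control library.

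**Figure D4:**
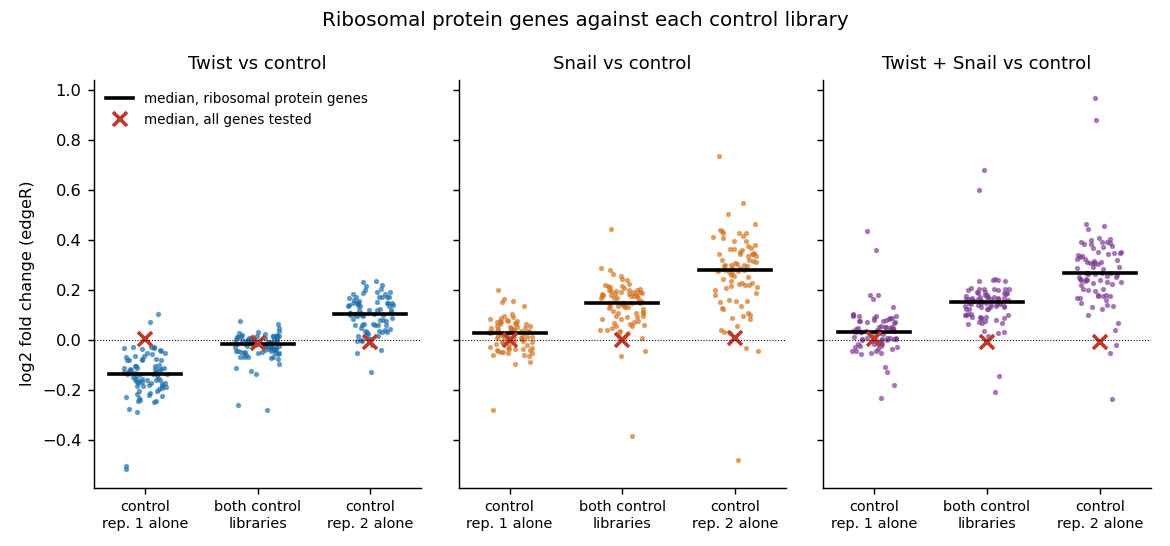
Log2 fold change (edgeR) of the 83 ribosomal protein genes (points) with Twist, Snail and both guide pools against control replicate 1 alone, both control libraries and control replicate 2 alone; bars mark the median of these genes and crosses the median of all genes tested. In each panel the bar is lowest against control replicate 1 and highest against control replicate 2 (for Twist guides -0.13 and 0.11), while the crosses stay near 0.

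Between the control libraries, replicate 2 minus replicate 1, the 83 genes had a median log2 difference of -0.25, a ratio of 0.841, and 81 of them (97.6%) were lower in replicate 2. Over all tested genes the median was 0.008 and 48.8% were lower, and the mitochondrial ribosomal protein genes had a median of -0.086. Among the largest differences were those of RpS19b and RpLP2, which were lower in replicate 2, and RpL22, RpLP0-like and RpL3 lay at the other end of a range from -0.53 to 0.2. RpL3, which reaches into the peptidyl transferase centre, had 1698 CPM in control replicate 2 and 1700.5 CPM in replicate 1.

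Short transcripts in general were lower in control replicate 2, and the medians of ribosomal protein genes lay below those of other genes of the same length. Among other genes the median difference was -0.09 for transcripts of up to 600 bp, -0.099 for 600 to 1000 bp and -0.062 for 1000 to 1500 bp, and it was 0.29 above 5000 bp. The ribosomal protein genes had medians of -0.24 (16 genes), -0.26 (53 genes) and -0.24 (13 genes) in the first 3 of these length classes. Within the set, Spearman's correlation of the difference with transcript length was 0.0174 across 83 genes, which are not independent replicates. With offsets that remove each library's trend on transcript length, the median fold change was 0.0029 with Twist guides, 0.1 with the Snail pool and 0.17 with both pools against both controls, and 0 of 83 genes were called in each.

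**Figure D5:**
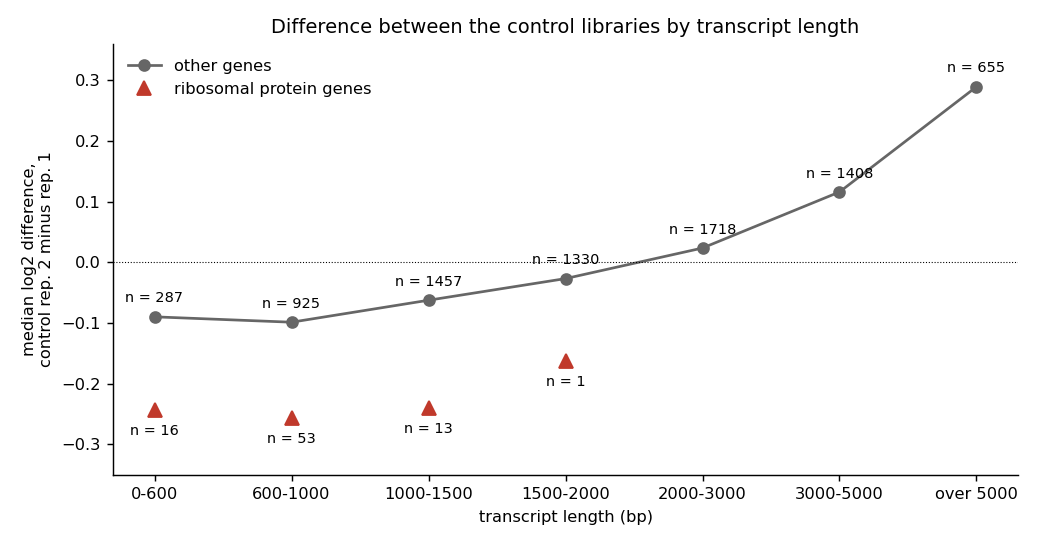
Median log2 difference between the control libraries (replicate 2 minus replicate 1) by annotated transcript length in bp, for other genes (circles) and ribosomal protein genes (triangles), with the number of genes at each point. Ribosomal protein genes lie near -0.25 in the 3 shortest classes, below other genes of the same length at -0.09, -0.099 and -0.062.

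Comparisons among the activated groups do not use the control libraries for the difference itself. Both pools against Twist guides gave a median of 0.17 (1.12-fold) with 81 of 83 genes above 0, Twist against Snail guides a median of -0.16 (0.895-fold) with 4 above 0, and both pools against Snail guides a median of 0.0028 with 45 above 0. In the fit of all 8 libraries 0 of 83 genes were called in any of the 3 (edgeR), against backgrounds of 1.05, 1.08 and 0.909%. At an unadjusted p under 0.05 there were 16, 20 and 3 of them, against 18.2, 11.9 and 18.4% of all tested genes. DESeq2 called 1 in each: RpS19b higher with both pools than with Twist guides (background 1.97%), RpS19b lower with Twist than with Snail guides (1.12%), and RpL22 higher in both-pool than in Snail libraries (2.19%).

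The separation between libraries was wide for 2 of these comparisons. Both both-pool libraries were above both Twist libraries in 73 of 83 genes and below in 1, against 29.6% of all tested genes above and 29.0% below. Both Twist libraries were below both Snail libraries in 62 and above in 1, against 26.3% of all genes below and 25.6% above. Between both pools and Snail guides 16 genes were higher and 11 lower without overlap, against 29.3% of all genes higher and 30.4% lower.

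These counts changed with the libraries in the fit. Without control replicate 1, 22 of 84 genes were called higher with both pools than with Twist guides (background 5.64%), and without control replicate 2 the count was 23 (background 5.67%). With only the 2 groups in the fit it was 18 (background 4.14%). For Twist against Snail guides the genes called lower numbered 24 without either control library (backgrounds 2.94 and 2.91%) and 16 with only the 2 groups (background 1.87%).

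RpL21, a large-subunit protein picked because it had the smallest p between Twist and Snail guides, had 3328 and 3168 CPM in the Twist libraries, 4160.5 and 3966 CPM in the Snail libraries, 3534 and 3759 CPM in the both-pool libraries, and 3623 and 3063 CPM in control replicates 1 and 2. Both Snail libraries were above the other 6. Twist against Snail guides gave a fold change of -0.32 ± 0.097 on the log2 scale (SE; adjusted p = 0.217, edgeR) in the fit of all libraries, and an adjusted p of 0.00194 without control replicate 1. RpS29, a small-subunit protein and the gene with the highest fold change with Snail guides against control after RpS19b, had 2167 and 1991 CPM in the Twist libraries, 2524 and 2538 CPM in the Snail libraries, 2391 and 2501 CPM in the both-pool libraries, and 2278 and 1872 CPM in control replicates 1 and 2. It had a fold change of 0.29 ± 0.10 on the log2 scale (SE; adjusted p = 0.238, edgeR) against both controls, and an adjusted p of 0.504 against control replicate 1 alone and 0.000538 against replicate 2 alone. RpS12, a small-subunit protein known in flies for its role in cell competition, had 1178 and 1071 CPM in the Twist libraries, 1202 and 1298 CPM in the Snail libraries, 1374 and 1368 CPM in the both-pool libraries, and 1327 and 1078 CPM in control replicates 1 and 2 and was picked after its values were seen. Both both-pool libraries were above all others, and both pools against Twist guides gave a fold change of 0.29 ± 0.10 on the log2 scale (SE; adjusted p = 0.165, edgeR) with all libraries.

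RpS19b was among the genes that differed from the others, which are not all named here. For this gene, both pools against Twist guides gave a fold change of 0.94 ± 0.21 on the log2 scale (SE; adjusted p = 0.0964, edgeR), both pools against control 0.68 ± 0.21 (adjusted p = 0.196; 0.179 against control replicate 1 alone and 0.00769 against replicate 2 alone), and Twist against Snail guides -0.70 ± 0.21 (adjusted p = 0.309). Without control replicate 1 the comparison of both pools with Twist guides had an adjusted p of 0.00358. Its partner RpS19a had 0.18 ± 0.12 for both pools against Twist guides, near the median of 0.17 for the 83 genes.

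RpL22, whose protein can bind RNA outside the ribosome, was low with Snail guides, without a call against control. At X:762560-765130 on the minus strand, it had 365 and 319 CPM in the Twist libraries, 236 and 299 CPM in the Snail libraries, 398 and 340.0 CPM in the both-pool libraries, and 325 and 373 CPM in control replicates 1 and 2. The Snail libraries were the 2 lowest, and control replicate 2 was above replicate 1, which among the 83 genes held for RpL22 and RpLP0-like. Snail guides gave a fold change of -0.38 ± 0.13 on the log2 scale (SE; adjusted p = 0.255, edgeR) against control, and both pools gave a fold change of 0.46 ± 0.13 on the log2 scale (SE; adjusted p = 0.124, edgeR) against Snail guides. RpL22 was called in the latter comparison by DESeq2 (adjusted p = 0.0191) and by edgeR with no filter (adjusted p = 0.0154). It was also called there by edgeR with only the 2 groups in the fit.

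RpLP0-like had 106 and 124 CPM in the Twist libraries, 121 and 107 CPM in the Snail libraries, 97.1 and 91.6 CPM in the both-pool libraries, and 107 and 111 CPM in control replicates 1 and 2. The both-pool libraries were the 2 lowest. Both pools gave a fold change of -0.21 ± 0.095 on the log2 scale (SE; adjusted p = 0.296, edgeR) against control, -0.28 ± 0.094 against Twist guides (adjusted p = 0.142) and -0.27 ± 0.094 against Snail guides (adjusted p = 0.164). Without control replicate 1 the last pair of comparisons had adjusted p-values of 0.0286 and 0.0326. RpS15Ab, a 1-exon copy of RpS15A, was also among the lowest with both pools, at -0.14 ± 0.099 against control. With Twist guides against control the highest values were those of RpLP0-like (0.075 ± 0.094) and RpL4 (0.064 ± 0.10), and RpS19b was among the lowest (-0.26 ± 0.22).

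The 3 ribosomal proteins listed under other symbols were sop, oho23B and Rack1, which encode the fly RpS2, RpS21 and RACK1 proteins. In the fits of all libraries 0 of 3 were called against control by edgeR or DESeq2 with any guide pool. Over all tested genes edgeR called 0.934, 0.324 and 1.57% in the order Twist, Snail and both pools, and DESeq2 0.897, 1.03 and 2.06%. At an unadjusted p under 0.05 (edgeR) there were 0, 1 and 0 of the 3, against 8.28, 14.0 and 16.5% of all tested genes. The 3 genes had medians of -0.0086 with Twist guides, 0.17 with the Snail pool and 0.075 with both pools against control. Whether any of the 3 was called with Snail guides or both pools depended on which control library was used alone. Their median difference between the control libraries was -0.25, as in the median of the 83 genes. oho23B had 766 and 754 CPM in the Twist libraries, 840.4 and 893 CPM in the Snail libraries, 796 and 854 CPM in the both-pool libraries, and 797 and 698 CPM in control replicates 1 and 2, with control replicate 2 lowest.

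The genes that make ribosomes had medians of another order. Of 23 tested ribosome biogenesis factors, 0 were called with Twist guides (median 0.018), 0 with the Snail pool (-0.031) and 1 with both pools (median -0.17, 20 of 23 below 0) against control, with 0, 1 and 9 at an unadjusted p under 0.05 (8.28, 14.0 and 16.5% of all tested genes) and 0, 1 and 2 called by DESeq2. The DESeq2 calls were bys and CG8801, which is named after its values were seen and lay the other way from the median, at a log2 fold change of 0.35 ± 0.087 with both pools (adjusted p = 0.0707, edgeR). The fold change of CG8801 was 0.28 against control replicate 1 alone and 0.42 against replicate 2 alone. With both pools, how many of the 23 factors were called depended on which control library was used alone. Both pools against Twist guides gave the 23 factors a median of -0.2, with 4 above 0. At an unadjusted p under 0.05 there were 9 of them, against 18.2% of all tested genes. DESeq2 called 3 there, among them bys and nop5, against 1.97% of all tested genes. Against Snail guides the median was -0.11, with 9 at an unadjusted p under 0.05 (18.4%) and 1 called by DESeq2 (2.19%). The median difference of the 23 factors between the control libraries was 0.11. The gene called by edgeR against control was bys, which encodes a factor for maturation of the small subunit. It fell to 35.8 and 31.7 CPM with both pools, against 45.3 and 49.3 CPM in controls, a log2 fold change of -0.49 ± 0.10 (adjusted p = 0.0382, edgeR). Against Twist guides, with 47.3 and 51.6 CPM, it was also called, at -0.55 ± 0.10 (adjusted p = 0.0268, edgeR). The call against control held with each control library alone (adjusted p = 0.0281 for replicate 1 and 0.0033 for replicate 2, edgeR). It was lost without a Snail library (0.074 and 0.0741), without a both-pool library (0.124 and 0.437) and in the fit of only the 2 groups, over a range of 0.00153 to 0.437 in 16 alternatives. The call against Twist guides was lost without a Snail library (0.0629 and 0.0633), a both-pool library (0.115 and 0.436) or Twist replicate 2 (0.403), and its adjusted p ranged from 0.000153 to 0.436. nop5, a core protein of the small nucleolar ribonucleoproteins that methylate ribosomal RNA, had 108 and 133 CPM in the Twist libraries, 111 and 112 CPM in the Snail libraries, 95.4 and 82.3 CPM in the both-pool libraries, and 113 and 122 CPM in control replicates 1 and 2. Its both-pool libraries were the 2 lowest, and it was not called against both controls, at -0.41 ± 0.11 (adjusted p = 0.0892, edgeR). Against control replicate 2 alone it was called, with an adjusted p of 0.0177 (0.0919 against replicate 1 alone).

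The 6 tested subunits and factors of RNA polymerases I and III had 0 called against control (edgeR and DESeq2; 0, 0 and 1 at an unadjusted p under 0.05 in the order Twist, Snail and both pools), with medians of -0.045, -0.074 and -0.11 in the same order. The 20 tested translation initiation and elongation factors also had 0 called by edgeR (0, 4 and 2 at an unadjusted p under 0.05; 0, 1 and 0 by DESeq2). Their medians were -0.048, 0.0068 and -0.0057. For these lists and the regulators below, the shares of all tested genes at an unadjusted p under 0.05 were 8.28, 14.0 and 16.5%. The shares called in the same order were 0.934, 0.324 and 1.57% by edgeR and 0.897, 1.03 and 2.06% by DESeq2. With a single control library in the fit, some polymerase and some translation factor genes were called with Twist guides, Snail guides and both pools. Which genes these were depended on the control library. The median differences between the control libraries, replicate 2 minus replicate 1, were 0.086 for the polymerase genes and -0.029 for the translation factors. Ef1alpha48D, the main elongation factor that brings aminoacyl-tRNA to the ribosome, had 7891 and 7829.5 CPM in the Twist libraries, 6828 and 7031 CPM in the Snail libraries, 8516 and 7853 CPM in the both-pool libraries, and 7901 and 9291 CPM in control replicates 1 and 2. Control replicate 2 was its highest library. Ef1alpha48D was the gene that DESeq2 called with Snail guides. In edgeR, Snail guides gave it a log2 fold change of -0.31 ± 0.099 against both controls (adjusted p = 0.21). The value was -0.19 against control replicate 1 alone and -0.42 against replicate 2 alone. Of 13 growth and ribosome stress regulators, 1 was called with both pools and 0 with either pool alone (0 and 4 at an unadjusted p under 0.05 with Twist and Snail guides; 0 and 1 by DESeq2): Thor, the 4E-BP that restrains cap-dependent initiation, rose to 68.8 and 78.6 CPM with both pools, against 51.2 and 52.1 CPM in controls, a log2 fold change of 0.51 ± 0.10 (adjusted p = 0.0262, edgeR). Its call held with each control library alone (adjusted p = 0.0077 and 0.00589 for replicates 1 and 2, edgeR). It was lost without a Snail library (adjusted p = 0.0569 and 0.0573) or a both-pool library (0.0677 and 0.373) and in the fit of only the 2 groups, over a range of 0.000324 to 0.373 in 16 alternatives. Of the 13 regulators, 5 were called lower with Snail guides against control replicate 2 alone (11.4% of all tested genes lower) and 0 against replicate 1 alone, and with both pools 2 and 4 were called higher (5.02% of all tested genes higher against replicate 1). dm, the fly Myc and a known activator of ribosomal protein genes, had 174 and 168 CPM in the Twist libraries, 156 and 147 CPM in the Snail libraries, 182 and 162 CPM in the both-pool libraries, and 179.6 and 196 CPM in control replicates 1 and 2. It was lowest with Snail guides and not called there against both controls, at -0.31 ± 0.082 (adjusted p = 0.152, edgeR). Against control replicate 2 alone it was called, at a log2 fold change of -0.37 (adjusted p = 0.00344, edgeR), and against replicate 1 alone it was not (adjusted p = 0.215).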

How the data were processed

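Messenger RNA was sequenced in 8 libraries of S2R+ cells. The values are raw read counts per gene symbol, deposited by the authors as 1 table per library. Per the submitters' processing notes, TopHat2 (version 2), Bowtie2, HTSeq and DESeq were used; their settings are not given. The sources used here name no genome build, strand setting or rule for reads that match several genes.

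Symbols were matched to Ensembl annotation of BDGP6.54 (10669 current, 3034 older and 458 unmatched of 14161), and transcript length is the median over a gene's annotated transcripts. Counts were tested with edgeR 4.0.16 in R 4.3.3: low genes were removed by filterByExpr (count minimum 10), which kept 8029 and left out 6132. TMM factors were 0.983 to 1.02, and the robust quasi-likelihood model had 4 groups, 8 libraries and 4 residual degrees of freedom. Benjamini-Hochberg adjustment ran over all tested genes of each comparison at 0.05. CPM are TMM-normalised. Every adjusted p is from this test unless DESeq2 1.42.0 is named. Scripts were tested on simulated data. With 2 libraries per group, the spread behind each edgeR p-value was pooled over the groups in the fit and moderated across genes. The median prior degrees of freedom were 8.76. This spread covers only variation between these libraries, which the series calls biological replicates.

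Named genes were those in paralog pairs, the 5 highest and 5 lowest per kilobase, those at the ends of each comparison and of the control pair, sta, the stalk genes, twi and sna, and up to 3 per list of other genes by smallest p, of which a few are not reported here. Members and lists were chosen with earlier results of these data known. Alternatives were scaling by DESeq2 size factors or by library size, dropping the filter or asking for 1 CPM in 2 libraries, DESeq2, a replicate block, only the 2 groups compared, length offsets and leaving out each library.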

Additional observations from a re-analysis of the deposited data

How the results depend on the processing

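Of 24 named gene results, none reversed sign with a call under the alternatives tried, and 28 of their 384 alternative values passed the threshold where the fit of all libraries did not. Calls of ribosomal protein genes changed from 0 to 1 with the DESeq2 test in both pools against control, against Twist and against Snail guides, and in Twist against Snail guides. With no filter they were 2 for both pools against Twist and 1 against Snail guides (3.51 and 3.65% of all tested genes). With length offsets the count was 1 for both pools against Twist guides (2.02% of all tested genes). With only the 2 groups compared the calls were 19 for both pools against Twist, 4 against Snail guides, and 16 for Twist against Snail guides. The shares of all tested genes called in these fits were 8.93, 19.6 and 8.93% in the same order. Leaving out 1 library gave 0 to 2 calls for Twist, 0 to 53 for Snail and 0 to 53 for both pools against control, 0 to 24 for both pools against Twist, 0 to 1 against Snail, and 0 to 24 for Twist against Snail guides. The medians then ran from -0.13 to 0.11, 0.028 to 0.28, 0.033 to 0.27, 0.12 to 0.2, -0.037 to 0.068 and -0.2 to -0.12 in the same order. The median of Twist against Snail guides was -0.095 with length offsets, and that of both pools against Snail guides, 0.0028 with TMM, was -0.023 with library size alone. The share of counts was 14.1% without paralog pairs, and 16.6 to 17.1% without 1 library. The median log2 ratio of minor to major paralog per kb was -4.73 over 10 pairs and -4.76 not divided by length.

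Counts over all genes moved by over 1.5 times in several settings. With no filter 128, 218, 353, 419, 436 and 198 genes were called, and with only the 2 groups 39, 6, 56, 710, 1549 and 705, for Twist, Snail and both pools against control, both pools against Twist and against Snail, and Twist against Snail guides, where the fit of all libraries called 75, 26, 126, 84, 73 and 87. DESeq2 called 83 for Snail against control, 158 for both pools against Twist and 176 against Snail guides, and length offsets gave 159 for both pools against Twist guides. Leaving out 1 library gave 41 to 506, 6 to 1443, 30 to 1148, 9 to 975, 9 to 1135 and 39 to 858.

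The deviations of same-numbered libraries from their group means were only weakly correlated (-0.148 to 0.142). With 2 libraries per group, these values cannot exclude that the numbers pair the samples. A replicate block gave 0 ribosomal protein genes called in each of the 6 comparisons, with medians of -0.014, 0.15, 0.15, 0.17, 0.0024 and -0.16, and 76, 35, 119, 98, 55 and 87 genes called in all. Depth limits the 7 genes under 1 CPM, of which 0 passed the filter with all 8 libraries and 5 with no filter. Leaving out either control library, Snail replicate 1 or both-pool replicate 2 let 1 of them pass.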
